A study of Mus musculus with 4 samples.

Results

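Neuropeptide and peptide hormone precursor genes were described in group 2 innate lymphoid cells (ILC2s), resident lymphocytes of barrier tissues that have no antigen receptors and secrete type 2 cytokines. The genes were 10 of the 27179 in the deposited table of counts: Penk, Calca, Calcb, Grp, Npy, Vip, Tac1, Nmu, Adm and Pomc. They were chosen by symbol, with earlier results of the diet comparison in these libraries known, so their diet differences are given as descriptions and support nothing beyond themselves. Each of the 4 RNA libraries came from colonic ILC2s sorted from 1 C57BL/6J mouse, with 2 mice on a high-fiber diet and 2 on a control diet. The gates of the sort, the kind of fiber, the time on the diet, the age of the mice and the number of cells are not stated in the labels. Of the 10 precursor genes, 7 had counts. Vip, Tac1 and Nmu had 0 counts in all 4 libraries.

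Peptide hormones and neuropeptides are made as long precursor proteins that enter secretory granules, where prohormone convertases cut them at pairs of basic residues and further enzymes trim and amidate the ends. In the gut wall most of these peptides come from enteric neurons, sensory nerve endings and enteroendocrine cells. ILC2s carry receptors for several of them, among them neuromedin U, CGRP and VIP, and are also known to make CGRP and enkephalin themselves.

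Totals were 20750263 to 29263068 counts in the high-fiber libraries and 20253987 to 30406730 counts in the control libraries, and 11841 genes entered the test. High-fiber library 2 stood apart from the others on the first principal component, which held 47.0% of the variance (score 70.4, against -37.0 to -5.95 for the other 3). Diet differences of precursor genes are given without single libraries where these moved them. All 12 ILC2 marker genes had counts in every library. They summed to 16460 and 14620 CPM on the high-fiber diet, against 14580 and 11560 CPM on the control diet. Of the 12, 9 had a positive and 3 a negative log2 fold change. Gata3, the lineage transcription factor and 1 of those 3, was at 1296 and 766.1 CPM on the high-fiber diet, against 1615 and 1026 CPM on the control diet. CPM here are counts after scaling each library to the same size (1e+06). In bulk RNA, fewer cells of a kind and less RNA per cell cannot be told apart.

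Penk encodes proenkephalin, the precursor of the opioid peptides Met-enkephalin and Leu-enkephalin. Its gene lies on chromosome 4 from 4133536 to 4138815, on the minus strand of GRCm38, the build that mm10 names. The coding sequence shows why 1 transcript can yield many peptides. In the GENCODE M21 transcript with the longest coding sequence (804 bases), the codons of an enkephalin occur 7 times, 6 of them for Met-enkephalin and 1 for Leu-enkephalin. Each copy is printed with the 6 bases before and after it, 5′ to 3′, with the 15 enkephalin-coding bases in capitals.
Penk copy 1, Met-enkephalin: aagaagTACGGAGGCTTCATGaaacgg
Penk copy 2, Met-enkephalin: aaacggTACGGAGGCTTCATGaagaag
Penk copy 3, Met-enkephalin: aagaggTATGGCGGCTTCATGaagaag
Penk copy 4, Met-enkephalin: aagaggTATGGGGGCTTCATGagaagc
Penk copy 5, Met-enkephalin: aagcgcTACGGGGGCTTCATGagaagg
Penk copy 6, Leu-enkephalin: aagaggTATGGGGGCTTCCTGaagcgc
Penk copy 7, Met-enkephalin: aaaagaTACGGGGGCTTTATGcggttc
All 7 copies follow a pair of codons for basic residues, the kind of site that prohormone convertases cut, and 5 have such a pair on both sides. The 7 copies use 6 spellings.

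Penk was the member with the smallest p in the diet comparison and was high in both high-fiber mice. Its transcripts stood at 312.7 and 211.3 CPM in the high-fiber libraries (9027 and 4305 counts), against 19.8 and 4.34 CPM in the control libraries (597 and 91 counts). The groups did not overlap, and the means were 262 ± 71.7 CPM on the high-fiber diet, against 12.1 ± 10.9 CPM on the control diet (SD, n = 2 each). The log2 fold change was 4.35 ± 0.55 (SE). The lower control library decides much of this size: the log2 fold change was 5.92 without control library 1 and 3.73 without control library 2. It was 4.06 without high-fiber library 1 and 4.59 without high-fiber library 2. A noncoding gene on the other strand overlaps Penk in GENCODE, and the strand setting of the counting is not given, so reads of the pair cannot be told apart.

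Across all 11841 tested genes edgeR's quasi-likelihood test called 0.0338% higher and 0% lower on the high-fiber diet at a Benjamini-Hochberg adjusted p under 0.05, and 0 of the 7 tested precursor genes passed in either direction. The smallest edgeR adjusted p among them was 0.195, for Penk, and 4 of the 7 lay at an unadjusted p under 0.05 and were higher on the high-fiber diet, as were 4.7% of all tested genes, with 4.1% lower. DESeq2 called 1.41% of genes higher and 0.681% lower. It called 4 of the 7 precursor genes higher and 0 lower: Penk (DESeq2 adjusted p = 1.74e-11), Grp (4.1e-06), Npy (2.77e-04) and Calca (0.0081). Npy, with 0 counts in both control libraries, entered the tests through its high-fiber counts alone, so only a higher call was possible for it. Both high-fiber libraries lay above both control libraries for 18.5% of tested genes and below them for 19.6%. Among the precursor genes this held for 4 above (Penk, Grp, Calca and Npy) and 1 below (Calcb). Since the genes were chosen with this contrast known, nothing is read from these counts.

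**Figure D1:**
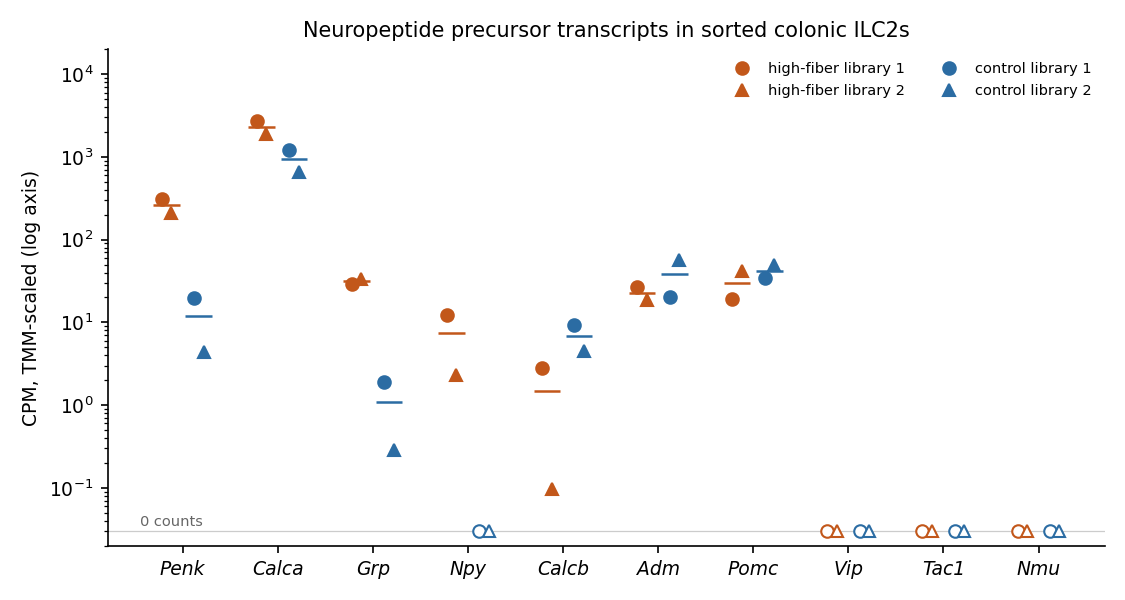
CPM on a log axis for the 10 precursor genes in each of the 4 libraries, with circles for library 1, triangles for library 2, and horizontal lines at the mean of each diet. Open symbols on the bottom line mark 0 counts. Penk, Calca and Grp lie higher in both high-fiber libraries (312.7 and 211.3 CPM for Penk) than in both control libraries (19.8 and 4.34 CPM for Penk), and Vip, Tac1 and Nmu have no counts.

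Grp encodes gastrin-releasing peptide, known as a transmitter of enteric neurons that acts on smooth muscle and gut endocrine cells. It lies on chromosome 18 from 65872751 to 65886599 on the plus strand. It stood at 29.3 and 33.8 CPM in the high-fiber libraries (845 and 689 counts), against 1.89 and 0.286 CPM in the control libraries (57 and 6 counts). The high-fiber values were close to each other and did not overlap with the control values, which differed between the mice. The log2 fold change was 4.68 ± 0.70 (SE, edgeR adjusted p = 0.256 over all genes). It was 6.76 without control library 1 and 4.05 without control library 2. An antisense gene overlaps Grp as well.

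Among 8897 other genes with a mean of at least 5 CPM, Grp was also the fourth closest to Penk in its pattern over the 4 libraries. Closeness was the Euclidean distance between log2(CPM + 1) values centred on the mean of each gene. The closest gene was Tph1, which encodes the tryptophan hydroxylase of serotonin synthesis outside the brain (distance 0.303). Tph1 had 28192 and 12208 counts on the high-fiber diet, against 2287 and 303 counts on the control diet. Kmo, a kynurenine pathway enzyme, came next (0.474), then Il17f, a cytokine of type 3 immunity (0.895), Grp (0.949) and Maged1, a member of the MAGE family (1.199). Kmo had 1363 and 898 counts on the high-fiber diet, against 121 and 1 on the control diet. In all 5 genes, as in Penk, control library 2 was the lowest of the 4 libraries. They were picked for likeness to Penk, so this shared order follows from the choice and is no separate result. Calca ranked number 127 in closeness to Penk, Pomc number 7889 and Adm number 8200. These distances rest on 4 libraries and are a description.

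**Figure D2:**
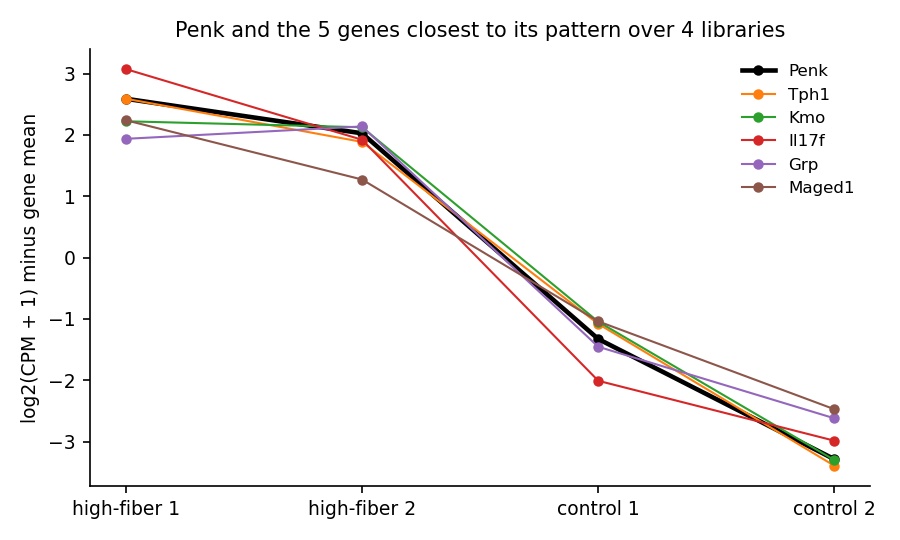
Values of log2(CPM + 1) minus the mean of the gene, in the 4 libraries, for Penk (black) and the 5 genes with the smallest distance to it. All 6 lie above their mean in both high-fiber libraries and below it in both control libraries, with control library 2 lowest. The 5 were picked for likeness to Penk, so the shared order follows from the choice.

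Pomc, the precursor of beta-endorphin, corticotropin and the melanocortins, is the other opioid precursor measured here with counts. It lies on chromosome 12 from 3954945 to 3960643 on the plus strand. It stood at 19.4 and 41.3 CPM in the high-fiber libraries (559 and 841 counts), against 34.7 and 49.9 CPM in the control libraries (1048 counts in each). The groups overlapped, and the log2 fold change was -0.50 ± 0.45 (SE, edgeR adjusted p = 0.829). Without high-fiber library 1 it was 0.0070. Pdyn and Pnoc, the precursors of the dynorphins and of nociceptin, had 0 counts.

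Calca was the most abundant precursor transcript per length in every library. By alternative splicing it encodes either calcitonin or the alpha form of calcitonin gene-related peptide (CGRP), a vasodilator peptide of sensory nerves that is known to restrain ILC2 proliferation. Counts per gene do not tell these products apart. Calca stood at 2724 and 1873 CPM in the high-fiber libraries (78640 and 38174 counts), against 1216 and 658 CPM in the control libraries (36712 and 13818 counts). Both high-fiber libraries lay above both control libraries, although the spread within each diet was wide (2299 ± 601 CPM on the high-fiber diet, against 937 ± 394 CPM on the control diet, SD, n = 2 each). The log2 fold change was 1.29 ± 0.35 (SE, edgeR adjusted p = 0.447). It ran from 0.917 without control library 2 to 1.81 without control library 1, and the DESeq2 call was lost without control library 2 (DESeq2 adjusted p = 0.395).

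Calcb, which encodes the beta form of CGRP, is a paralog on the same chromosome. Calca lies on chromosome 7 from 114625981 to 114636910 on the minus strand and Calcb from 114716555 to 114723368 on the plus strand. The Calca coding sequence closest to Calcb in GENCODE matched the shorter Calcb coding sequence at 325 of 381 aligned bases (85.3%). The longest run of identical bases in that pair was 60, printed here because reads that lie within it cannot be given to 1 of the genes.
Calca and Calcb shared coding run: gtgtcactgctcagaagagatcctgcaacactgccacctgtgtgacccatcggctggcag
Calcb was the lower of the pair and differed in the opposite direction. It stood at 2.84 and 0.098 CPM in the high-fiber libraries (82 and 2 counts), against 9.30 and 4.53 CPM in the control libraries (281 and 95 counts). The groups did not overlap, and the log2 fold change was -2.10 ± 0.99 (SE, edgeR adjusted p = 0.635). The library with 2 counts set its size: the log2 fold change was -6.11 without high-fiber library 1 and -1.35 without high-fiber library 2. It was -1.43 without control library 1. Calcb counts came to 0.104% and 0.00524% of Calca counts in the high-fiber libraries and to 0.765% and 0.688% in the control libraries.

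Adm encodes adrenomedullin, a vasodilator peptide of the same family that many cells make under low oxygen. It lies on chromosome 7 from 110627657 to 110629820 on the plus strand, where an antisense gene overlaps it. It stood at 26.7 and 18.8 CPM in the high-fiber libraries (772 and 384 counts), against 20.3 and 56.7 CPM in the control libraries (612 and 1190 counts). Control library 2 was the high one and the groups overlapped. The log2 fold change was -0.70 ± 0.55 (SE, edgeR adjusted p = 0.801), and without control library 2 its sign turned, to 0.181.

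Npy, the precursor of neuropeptide Y, had counts on the high-fiber diet alone. It lies on chromosome 6 from 49822710 to 49829507 on the plus strand. It stood at 12.4 and 2.31 CPM in the high-fiber libraries (357 and 47 counts), against 0 counts in both control libraries, where each 0 allows up to 3 counts per library. Set against 3 counts over both control libraries, Npy was at least 139.98-fold higher on the high-fiber diet, a bound that covers counting error only. It was 39.4-fold without high-fiber library 1, 211-fold without high-fiber library 2, 57.4-fold without control library 1 and 82.6-fold without control library 2. The high-fiber mice differed widely from each other, and the edgeR adjusted p over all genes was 0.447. DESeq2 gave no adjusted p for Npy without high-fiber library 1.

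**Figure D3:**
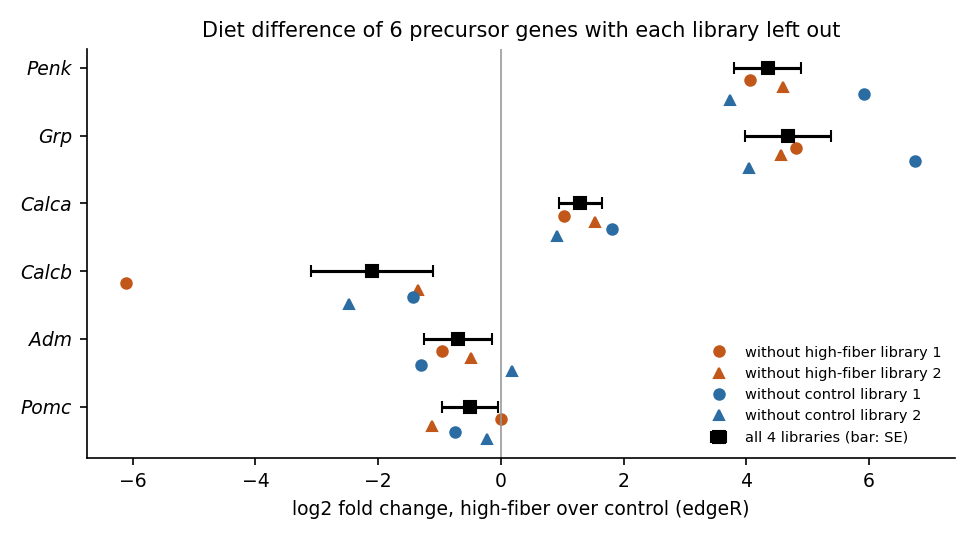
Fitted log2 fold changes, high-fiber over control, for 6 precursor genes with counts in both diets. Black squares show all 4 libraries with bars of 1 SE, and coloured symbols show the fit without 1 library. Penk, Grp and Calca stay above 0 and Calcb stays below 0 in each fit, while Adm (0.181 without control library 2) and Pomc (0.0070 without high-fiber library 1) cross 0.

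Vip, Tac1 and Nmu encode vasoactive intestinal peptide, the precursor of substance P, and neuromedin U, which in the gut are known from neurons. In each library 0 counts allow up to 3 counts, or 0.0993 to 0.147 CPM. They lie on chromosome 10 from 5639193 to 5647617, on chromosome 6 from 7555061 to 7562978 and on chromosome 5 from 76333495 to 76363777. The promoter of Vip is known from neural cells for its response to cyclic AMP, and Calca is known to respond to it too, so the 250 bases before a transcript start of each are shown, from RefSeq on GRCm38.p6, 5′ to 3′ on the strand of the gene. These starts lie inside the full span of the gene, so the window of Calca lies within that span and the window of Vip overlaps its first bases. Capitals mark the core TGACG of the cyclic AMP response element.
Calca promoter, chr7:114636358-114636607, minus strand: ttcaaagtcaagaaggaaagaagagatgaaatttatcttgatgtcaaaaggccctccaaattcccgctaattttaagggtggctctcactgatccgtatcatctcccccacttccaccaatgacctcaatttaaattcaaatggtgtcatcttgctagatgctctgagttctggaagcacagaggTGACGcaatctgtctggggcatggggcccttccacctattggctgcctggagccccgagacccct
Vip promoter, chr10:5638968-5639217, plus strand: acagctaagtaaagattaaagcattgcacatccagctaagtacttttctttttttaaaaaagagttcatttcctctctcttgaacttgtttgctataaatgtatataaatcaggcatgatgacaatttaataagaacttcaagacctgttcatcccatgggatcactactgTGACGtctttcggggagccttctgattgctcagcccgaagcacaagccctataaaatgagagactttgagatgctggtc
TGACG on either strand was present in the windows of Calca, Vip, Tac1 and Nmu among 7 precursor genes with a promoter entry, and in 20.8% of all 32851 promoter windows of 300 bases. The window of the most abundant precursor and those of the 3 without counts thus held the same letters. The whole element TGACGTCA, which contains that core, was in 1.79% of all windows and in those of 0 precursor genes. The AP-1 motif TGANTCA (7.81% of all windows) was in that of Nmu, the GATA motif AGATAA (11.2%) in those of Calca and Tac1, and the NFAT motif GGAAAA (23.4%) in none of the 7. A match is a description of letters and not of a bound site.

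Levels of different genes were compared as CPM per kilobase of exon. Calca made up 85.9% and 84.8% of the summed per-kilobase level of the 10 genes in the high-fiber libraries and 92.4% and 83.1% in the control libraries. Among 24390 genes with an exon length it ranked number 19 and 40 in the high-fiber libraries and number 56 and 98 in the control libraries. On the high-fiber diet Penk came second, at 160 ± 43.9 CPM per kilobase against 1365 ± 357 for Calca (SD, n = 2 each), and no library of 1 gene overlapped with those of the other. Pomc (23.0 ± 11.8), Grp (21.4 ± 2.2), Adm (14.1 ± 3.4) and Npy (13.0 ± 12.6) followed. Values of Pomc overlapped with those of Grp, and values of Adm with those of Npy, while Grp lay above Adm in both libraries. Calcb was last of the 7 (1.16 ± 1.53). On the control diet Pomc (32.1 ± 8.2) and Adm (23.8 ± 15.9) came after Calca (556 ± 234) and overlapped with each other. Penk (7.38 ± 6.68) lay below Adm by about the spread of Adm and overlapped with Calcb (5.47 ± 2.67). Grp, at 0.736 ± 0.767, lay below Calcb in both libraries. The per-kilobase level of Calca was 8.45 and 8.6 times that of Penk in the high-fiber libraries, against 59.7 and 147 times in the control libraries.

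The other peptide precursors in a list of 47 genes were mostly silent at this depth. Of the 46 with a row in the deposited counts, 40 had 0 counts in all 4 libraries, among them the precursors of somatostatin, galanin, cholecystokinin and peptide YY (Sst, Gal, Cck and Pyy). Of 3 tested, 0 passed with edgeR, and DESeq2 gave an adjusted p for Nmb alone, which did not pass. The median log2 fold change of the 3 was -0.055, against -0.016 for all tested genes. Nmb, the precursor of neuromedin B, a relative of gastrin-releasing peptide, was the most abundant of them, at 13.4 and 17.1 CPM on the high-fiber diet, against 10.5 and 21.9 CPM on the control diet. Ucn2, which encodes the stress peptide urocortin 2, had 0 counts on the high-fiber diet, against 50 and 33 counts on the control diet. Agrp, the precursor of an antagonist of melanocortin receptors, was at 1.21 and 0.0491 CPM on the high-fiber diet, against 0.695 and 0.429 CPM on the control diet.

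Granins and other proteins of large secretory granules were nearly absent. Of 11 genes 7 had 0 counts, including the chromogranin genes Chga and Chgb and the secretogranin genes Scg2 and Scg3. Cadps2, Ptprn and Scg5, the most abundant of the rest, had at most 70 counts in any library. Of 2 tested, Scg5 and Ptprn, 0 passed with edgeR, with a median log2 fold change of 0.951. DESeq2 gave no adjusted p for these 2.

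Enzymes that process precursors had counts for 11 of 13 genes. Of 9 tested, 0 passed in either direction with edgeR, and 5 were higher and 2 lower in both high-fiber libraries than in both control libraries. Over all tested genes 18.5% were higher and 19.6% lower in this way, and nothing is read from these counts. The median log2 fold change of the 9 enzymes was 0.726, and setting Cpe to its bound left it there. Pcsk1 encodes a convertase that cuts proenkephalin and other precursors. It was at 167 and 176 CPM on the high-fiber diet, against 37.6 and 30.8 CPM on the control diet (log2 fold change 2.32 ± 0.26, edgeR adjusted p = 0.104), and DESeq2 called it higher. Pcsk2, a further convertase gene named after its values were seen, had 7 and 0 counts on the high-fiber diet, against 3 and 1 on the control diet. Furin, a convertase of the Golgi, was at 205 and 148 CPM on the high-fiber diet, against 89.2 and 126 CPM on the control diet (0.73 ± 0.29). Ctsl, a cysteine protease that is also known to cut proenkephalin, was at 47.2 and 28.4 CPM on the high-fiber diet, against 42.0 and 39.5 CPM on the control diet.

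Genes for later steps of maturation, named after their values were seen, differed among themselves. Cpe encodes carboxypeptidase E, which removes the basic residues left by the convertases. It had 0 counts in both high-fiber libraries and 245 and 73 counts in the control libraries, at least 101.98-fold lower when set against 3 counts over both high-fiber libraries (edgeR adjusted p = 0.447), and DESeq2 called it lower (adjusted p = 6.78e-04), but not without control library 1 (DESeq2 adjusted p = 0.487). The bound was 42.2-fold without high-fiber library 1, 59.8-fold without high-fiber library 2 and 57.1-fold without control library 1. Cpe entered the tests through its control counts alone, so only a lower call was possible for it. Cpd, a carboxypeptidase of similar activity in the Golgi, was at 35.3 and 27.7 CPM on the high-fiber diet, against 23.1 and 8.77 CPM on the control diet. Pam, which encodes the enzyme that amidates peptides such as CGRP, neuropeptide Y and gastrin-releasing peptide, had 63 and 1 counts on the high-fiber diet, against 120 and 73 counts on the control diet. Qpct, which encodes glutaminyl cyclase, was at 34.2 and 46.1 CPM on the high-fiber diet, against 16.1 and 19.5 CPM on the control diet (1.17 ± 0.38, edgeR adjusted p = 0.456).

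Enzymes that break peptides down had counts for 10 of 11 genes, and of 9 tested 0 passed with edgeR or with DESeq2, with a median log2 fold change of 0.048. For Anpep, among the 9, DESeq2 gave no adjusted p. Mme, which encodes neprilysin, the main enkephalin-degrading peptidase of many tissues, had 0 counts. Ide, the insulin-degrading enzyme, was the most abundant, at 503 and 410 CPM on the high-fiber diet, against 410 and 475 CPM on the control diet. Dpp3, a peptidase that cleaves enkephalins, was at 23.9 and 26.1 CPM on the high-fiber diet, against 50.4 and 40.5 CPM on the control diet (-0.87 ± 0.33, edgeR adjusted p = 0.518). Lap3, a leucine aminopeptidase, was at 28.6 and 26.5 CPM on the high-fiber diet, against 21.9 and 25.6 CPM on the control diet.

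Receptors of these peptides had counts for 12 of 25 genes, and of 8 tested 0 passed with edgeR, with a median log2 fold change of -0.012. Of the 8, 3 were higher and 2 lower in both high-fiber libraries than in both control libraries, against 18.5% and 19.6% of all tested genes. The classical opioid receptor genes Oprd1, Oprm1 and Oprk1 had 0 counts in all 4 libraries. Ogfr, which encodes a receptor of Met-enkephalin unrelated to them, was at 66.5 and 35.8 CPM on the high-fiber diet, against 32.6 and 20.3 CPM on the control diet. CGRP and adrenomedullin act through Calcrl, a receptor that needs a partner of the RAMP family. Ramp3, such a partner, was the most abundant of the list in CPM, at 1603 and 1172 CPM on the high-fiber diet, against 867 and 628 CPM on the control diet (0.89 ± 0.27, edgeR adjusted p = 0.447, DESeq2 adjusted p = 0.0395). The DESeq2 adjusted p of Ramp3 was 0.0544 on all genes with any count, 0.0618 without high-fiber library 1, 0.104 without control library 1 and 0.849 without control library 2. Ramp1, the partner that makes the CGRP receptor, was at 241 and 320 CPM on the high-fiber diet, against 235 and 333 CPM on the control diet. Calcrl itself was at 12.5 and 13.8 CPM on the high-fiber diet, against 19.1 and 24.8 CPM on the control diet.

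Receptor genes of neuromedin U and VIP had counts, while the precursors Nmu and Vip had none. Nmur1, the receptor of neuromedin U on ILC2s, was at 341 and 263 CPM on the high-fiber diet, against 214 and 257 CPM on the control diet (0.36 ± 0.24). Vipr2, a VIP receptor, was at 52.1 and 58.8 CPM on the high-fiber diet, against 75.7 and 34.3 CPM on the control diet. Mc5r, a receptor of melanocortins, which are made from Pomc, was at 107 and 149 CPM on the high-fiber diet, against 117 and 140 CPM on the control diet. Grpr, the receptor of gastrin-releasing peptide, had 1 count in all, and the neuropeptide Y receptor genes Npy1r, Npy2r and Npy5r had 0. Calcrl, Vipr2, Mc5r and Ogfr were named after their values were seen.

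**Figure D4:**
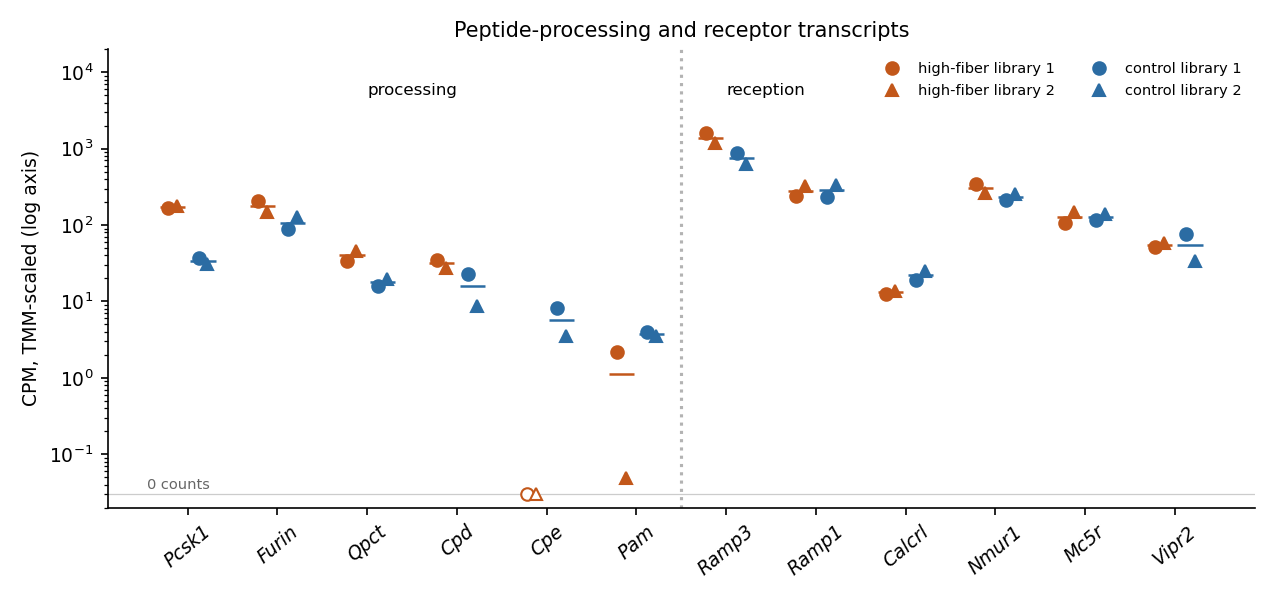
CPM on a log axis for 6 processing genes (left of the dotted line) and 6 receptor genes (right), with circles for library 1, triangles for library 2 and lines at the mean of each diet. Pcsk1 and Ramp3 lie higher in both high-fiber libraries (167 and 176 CPM for Pcsk1) than in both control libraries (37.6 and 30.8 CPM), while Cpe has 0 counts in both high-fiber libraries.

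Markers of other cells that make these peptides were set beside them. All 9 enteroendocrine markers, Chga, Chgb, Neurod1, Pyy, Gcg, Insl5, Sct, Cck and Scgn, had 0 counts in all 4 libraries. Among the enteric neuron markers, Snap25 and Nos1 had 0 counts in all 4 libraries. The summed level of the list was 53.8 and 68.3 CPM on the high-fiber diet, against 56.1 and 20.4 CPM on the control diet, nearly all of it Ret, which ILC2s also express. Uchl1, another of these markers, had 38 and 30 counts on the high-fiber diet, against 0 and 3 counts on the control diet. Enteric glia markers summed to 0.312 and 0.0491 CPM on the high-fiber diet, against 0 and 3.67 CPM on the control diet, with S100b and Entpd2 at 0 (3 of 5 markers with counts). Of 8 epithelial markers 6 had 0 counts, and the sum was 27.1 and 36.9 CPM on the high-fiber diet, against 25.1 and 27.3 CPM on the control diet, mostly Epcam.

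Regulatory T cells are known to express Penk. Foxp3, which defines them, had 4 and 86 counts on the high-fiber diet, against 4 and 1 counts on the control diet. Penk counts of the same libraries were 9027 and 4305 on the high-fiber diet, against 597 and 91 on the control diet. Of 8 T cell markers 7 had counts, with Cd8a at 0 and sums of 253.5 and 315.7 CPM on the high-fiber diet, against 179.7 and 212.9 CPM on the control diet, mostly Cd3g. Cd3e was at 1.21 and 5.30 CPM on the high-fiber diet, against 5.79 and 13.2 CPM on the control diet. Of the 5 T cell markers tested 1 had a positive and 4 a negative log2 fold change, with a median of -0.85, and edgeR called 0. DESeq2 called 1 of them lower, against 0.681% of all genes. This was Themis, a T cell signalling protein named after its values were seen. Themis was at 1.801 and 2.11 CPM on the high-fiber diet, against 12.02 and 15.9 CPM on the control diet (log2 fold change -2.83 ± 0.71, edgeR adjusted p = 0.447, DESeq2 adjusted p = 0.016). B and plasma cell markers moved with the diet in the same direction as Penk. All 8 had counts, and their summed level was 304.5 and 1169 CPM on the high-fiber diet, against 132 and 11.6 CPM on the control diet, carried by Igkc, Igha and Jchain. Macrophage, monocyte and dendritic cell markers (7 of 8 with counts, Itgax at 0) summed to 375.0 and 394 CPM on the high-fiber diet, against 224 and 332 CPM on the control diet. Mast cell markers (2 of 5 with counts, Mcpt1, Mcpt2 and Tpsb2 at 0) summed to 1.11 and 0 CPM on the high-fiber diet, against 2.45 and 1.95 CPM on the control diet. Stromal and endothelial markers (7 of 7 with counts) summed to 64.5 and 42.2 CPM on the high-fiber diet, against 44.2 and 42.6 CPM on the control diet, mostly Pecam1. The part of T cells, of B and plasma cells and of macrophages in the differences of Penk, Grp, Calca and Npy was not tested.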

How the data were processed

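Colonic ILC2s were sorted from 4 mice, 2 per diet, and their RNA was sequenced. A SMARTer kit for ultra-low input made the libraries, per the labels' protocols; it reverse-transcribes polyadenylated RNA and amplifies the product. The submitters' processing notes name CASAVA 1.8.2, STAR 2.3.0 and mm10 without their roles, and the counting program, its settings and its strand are not given there or in the labels. The authors deposited whole-number read counts per NCBI gene identifier, not normalized, for 27179 identifiers. A symbol was found for 25275 of them in the RefSeq annotation of GRCm38.p6, and the remaining 1904 were kept under their identifier.

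The fit used edgeR 4.0.16 in R 4.3.3: filterByExpr, TMM scaling, estimateDisp, glmQLFit (legacy=FALSE, robust off) and glmQLFTest on an intercept and the diet, with Benjamini-Hochberg adjustment over all 11841 genes tested at 0.05. Positive log2 fold changes mean higher on the high-fiber diet, and standard errors were derived from the F statistic. With 2 mice per diet there are 2 residual degrees of freedom. The fit estimated spread with information shared between genes, so p-values rest on that and on the spread between these mice. DESeq2 1.42.0 on the same genes, limma-voom (limma 3.58.1), other scalings, filters, fit settings, a replicate block and each library left out in turn were alternatives. The tests were checked on simulated data. CPM used the TMM-scaled library sizes, and per-kilobase levels used the union of GENCODE M21 exons. Bounds and the limit of 3 counts behind a 0 hold for counting error alone, because reads amplified by PCR do not count molecules.

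The members and the gene lists were chosen with earlier results of these data known. All 10 members were named. From each list of the pathway, genes past the threshold and the 3 of highest mean CPM were to be named, and others are said to be named after their values were seen. Promoter entries were found for 7 of the 10 precursor genes. No entry was present for Penk, Calcb and Grp. A gene of the enteric neuron list counts in its sum but is not reported here by itself.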

Additional observations from a re-analysis of the deposited data

How the results depend on the processing

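The count of precursor genes called by edgeR was 0 in either direction under the other scalings (RLE, upper-quartile, none), without the filter, under the older fit (legacy=TRUE) and under robust fitting. The limma-voom test called 0 of these genes as well. When genes had to reach 5 CPM in at least 2 libraries, edgeR called 1 of them higher (Penk, adjusted p = 0.0279). DESeq2 called 4 higher, and so it did on all genes with any count, a setting added after seeing the data. Without single libraries, also added then, DESeq2 log2 fold changes ran from 3.749 to 5.93 for Penk and from 4.085 to 6.802 for Grp. They ran from 0.94 to 1.817 for Calca and from -6.103 to -1.282 for Calcb. Of the pathway lists, 1 gene was called with the filter of 5 CPM (Pcsk1) and 3 with DESeq2 (Pcsk1, Ramp3 and Cpe). With DESeq2 on all genes with any count or without single libraries, Pcsk1 was called each time, Cpe was not called without control library 1, and Ramp3 was called only without high-fiber library 2. These fits, and the bounds of Npy and Cpe without single libraries, were added after seeing the data.

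Over all genes edgeR called 4 higher and 0 lower (485 lower at an unadjusted p under 0.05). Higher calls were 0 without a filter, with limma-voom, with legacy=TRUE and with the replicate block, 8 with the filter of 5 CPM and 157 with DESeq2, and 0 to 1 without single libraries. Lower calls were 1 with the filter of 5 CPM and 76 with DESeq2. The cause was not tested.

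Signs turned for Adm without control library 2 (0.181 with edgeR and 0.191 with DESeq2) and for Pomc without high-fiber library 1 (0.0070 with edgeR). With single libraries left out, log2 fold changes ran from -1.30 to 0.191 for Adm and, with edgeR, from -1.12 to 0.0070 for Pomc (-1.127 at the lowest with DESeq2). The labels name no shared litter or batch, so whether the replicate numbers pair the mice is not known. Deviations of same-numbered libraries had a correlation of 0.0809 over genes, which with 2 mice per diet cannot settle it. Totals were larger in library 1 of each diet (29263068 counts on high-fiber, 30406730 on control) than in library 2 (20750263 and 20253987). With the replicate block the log2 fold change of Penk was 4.52, 0 precursor genes were called higher, and 0 were called lower. Scaling moved the median log2 fold change of all genes to at most -0.057. Depth limits the genes at 0, and 2 mice per diet limit every other value.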
